A study of Arabidopsis thaliana with 24 samples.

Results

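The comparison set leaves of the Arabidopsis thaliana line Delta28 against wild-type (WT) leaves after a mock treatment. It used the 3 Delta28 mock libraries and the 3 WT mock libraries, 6 of the 24 libraries of the study, taken by the genotype and treatment in their labels. Delta28 has an h2a.z null background, in which it expresses HTA11, one of the H2A.Z histone genes, without the first 28 amino acids of the protein, whereas WT carries its own H2A.Z genes. In both groups the plants were 3 weeks old, and a mock solution of DMSO in water with a wetting agent was painted on the leaves, which were frozen after 4 h. The same design was run with abscisic acid (ABA, 10 uM), the drought hormone, and with lines in which all 9 lysines of the HTA11 tail (K>R 1-9) or only lysine 13 (K>R 3) were changed to arginine, again in the null background, with 3 biological replicates per group. No line used here expressed unmodified HTA11 in the null background. The effects of the missing tail, of the null background and of the transgene therefore cannot be told apart in Delta28 against WT. The labels do not state the promoter that drives the transgene, the number of independent lines or the number of plants per sample.

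H2A.Z is a variant of histone H2A that replaces the ordinary protein in some nucleosomes, mainly around the starts of genes and over the bodies of genes that respond to the environment. The SWR1 complex, built on the ATPase PIE1 with ARP6 and SEF, exchanges it into chromatin. The N-terminal tail that Delta28 lacks carries the lysines that can be acetylated, for which NuA4 is the best-known enzyme complex. In Arabidopsis, HTA8, HTA9 and HTA11 are the widely used H2A.Z genes, and loss of H2A.Z or of SWR1 is known for early flowering and for altered stress and phosphate starvation responses.

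RNA was counted at transcript 3′ ends with a QuantSeq forward kit, and the 6 libraries held 1565524 (WT replicate 2) to 13155266 (Delta28 replicate 2) estimated reads. After a filter on low counts 13874 genes were tested. Levels are given as CPM, the reads of a gene scaled to the library size after TMM normalisation, so a single read is worth least in Delta28 replicate 2 and most in WT replicate 2, where a count of 0 allows a level of up to 1.69 CPM, for counting error only. The deposited gene models left out the exon of lowest coordinate in 11593 of 11674 genes with a single transcript, and 0 of 5199 single-exon protein-coding genes had an entry. For genes on the minus strand this is the exon at the 3′ end, where the reads of this assay lie, and such genes held only 13.6% to 17.2% of the counts. The share of its own reads that each minus-strand gene kept was not measured. The 3 Delta28 libraries lay close together on the first principal component of the 6 libraries, which held 33.9% of the variance, at 31.2 to 32.7, while the WT libraries lay at -84.1 (replicate 2, the shallowest), -11.5 and -0.52. Leaf identity was plain in every library: summed mesophyll markers ranged from 15582 to 22939 CPM over the WT libraries and from 10335 to 24682 CPM over those of Delta28, and the 3 seed genes with an entry had no read. The summed levels of the guard cell, epidermis, dividing cell, root and flower markers also overlapped between the groups. Those of the vascular markers overlapped only narrowly, at 127, 133 and 145 CPM in WT and 144, 162 and 190 CPM in Delta28.

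The H2A.Z genes come first because the null background is the labelled genotype. HTA9, on chromosome 1, was at 303, 267 and 411 CPM in the WT libraries. It was at 66.0, 57.4 and 65.6 CPM in Delta28. Every Delta28 library was below every WT library, and HTA9 fell by 2.38 on the log2 scale (SE 0.19, adjusted p = 3.13e-07, quasi-likelihood test of edgeR, Benjamini-Hochberg adjusted over all genes). HTA9 reads thus fell to 0.193 of the WT level but were not lost. K>R 1-9 and K>R 3, which share the null background, stood at 53.8 to 59.5 CPM and at 53.9 to 59.1 CPM, and Delta28 differed from them by 0.15 on the log2 scale each (adjusted p = 0.77 and 0.798). HTA11 was at 7.34, 7.88 and 5.12 CPM in WT. In Delta28 it was at 10.09, 4.44 and 9.37 CPM, so the groups overlapped and the log2 difference was 0.27 (SE 0.95, adjusted p = 0.975). In K>R 1-9 the same gene stood at 420 to 491 CPM, and in K>R 3 at 10.9, 788 and 36.0 CPM, the 788 being replicate 2, which stands apart from its group. The labels do not state whether the Delta28 transgene ends in the 3′ sequence of HTA11, so the HTA11 level checks neither its presence nor its amount. HTA8 had no read in any library and HTA4 at most 0.353 CPM in the 6 libraries; HTA8 lies on the minus strand, so its value checks nothing.

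**Figure D1:**
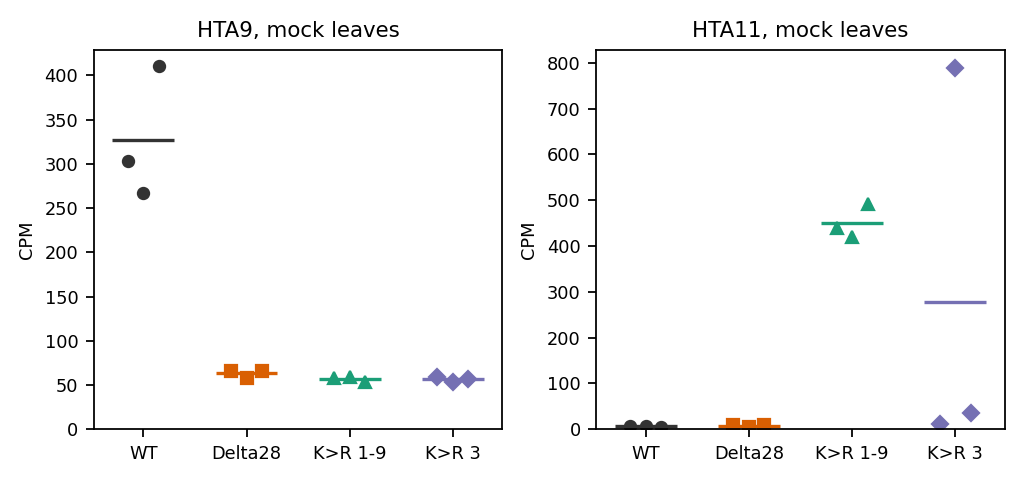
Levels of HTA9 (left) and HTA11 (right) in the mock leaves of the 4 lines, in CPM on linear axes from 0; each point is a library and each bar the mean of 3. HTA9 is between 53.8 and 66.0 CPM in all libraries of the null-background lines against 267 to 411 CPM in WT, and HTA11 is high in K>R 1-9 and in 1 K>R 3 library but not in Delta28.

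Across all genes, few differences between Delta28 and WT mock leaves passed the test. At an adjusted p under 0.05 edgeR called 22 of the 13874 genes tested (0.159%), 6 higher in Delta28 (0.0432%) and 16 lower (0.115%). The libraries of the groups did not overlap for any of the 22, and 21 of them differed by at least 2-fold. Over all genes tested, the 6 libraries did not overlap for 17.3%. At an unadjusted p under 0.05 there were 1232 genes, 677 of them higher. The count of calls was sensitive to single libraries: leaving out any 1 of the 6 left 4 to 12 calls, with the fewest without WT replicate 3 or without Delta28 replicate 2, and none of the higher genes remained called except without Delta28 replicate 1, where 4 higher genes were called. HTA9, AT2G40960 and AT5G16060 were called in each of the 6 fits that left out a library. DESeq2 called 88 genes (0.634%), 35 higher and 53 lower, among them all 22. In bulk leaf RNA, fewer cells of a type and less RNA per cell cannot be told apart.

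**Figure D2:**
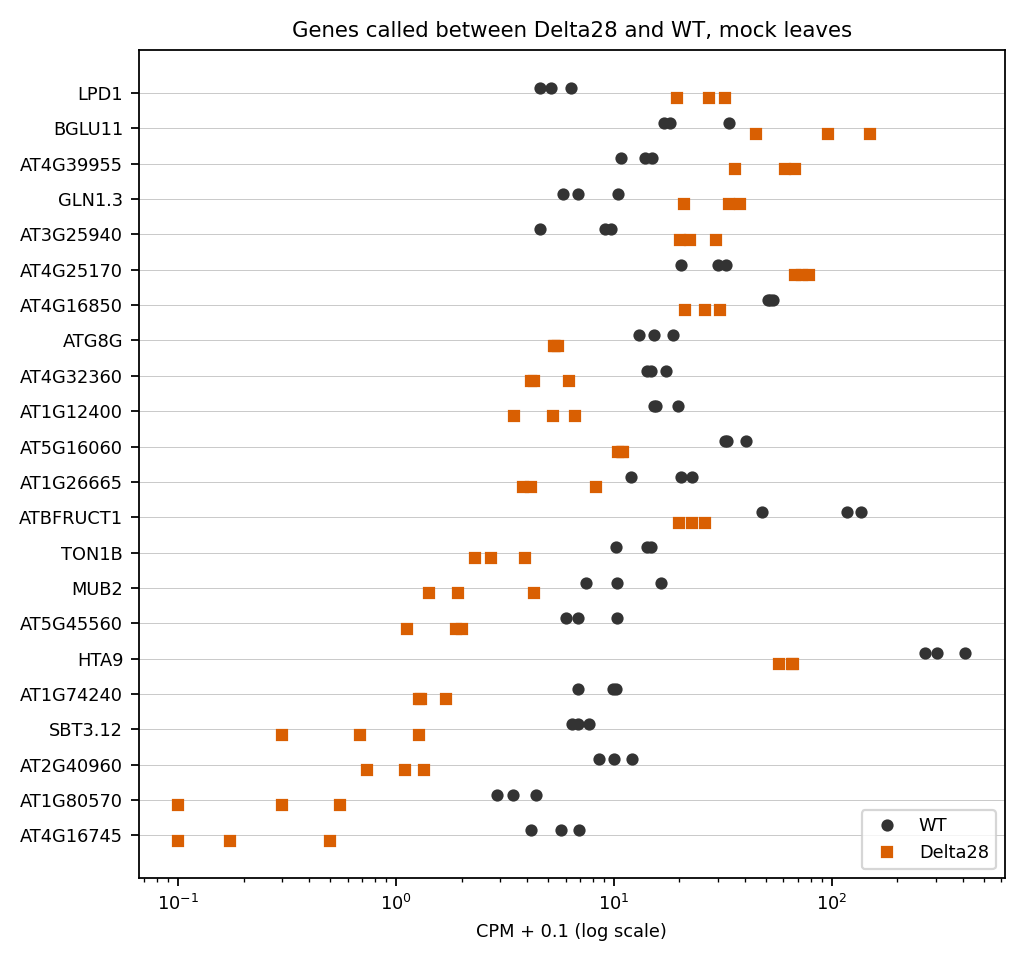
Level of each called gene in each of the 6 mock libraries, as CPM + 0.1 on a log axis; circles are WT, squares Delta28, and genes are ordered by log2 fold change. No gene has a Delta28 library within the WT range, and the widest gaps are those of AT4G16745, AT1G80570 and AT2G40960 at the bottom.

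AT5G16060, AT1G74240 and AT4G32360 fell, whereas LPD1, an oxidoreductase like AT4G32360 by annotation, rose and is described further on. AT5G16060 encodes a protein related to Cmc1, a copper-binding factor known from yeast for the assembly of cytochrome c oxidase. It was at 40.2, 32.1 and 32.9 CPM in WT and at 10.9, 10.3 and 10.8 CPM in Delta28. Its log2 fold change was -1.72 (SE 0.26, adjusted p = 0.00441), and the Delta28 libraries lay within 1 CPM of each other. AT1G74240, a member of the mitochondrial carrier family that moves metabolites across the inner membrane, was at 9.79, 6.76 and 10.14 CPM in WT against 1.18, 1.60 and 1.197 CPM in Delta28. It fell by 2.74 (SE 0.49, adjusted p = 0.0223), a call that remained without only 1 of the 6 libraries. AT4G32360, annotated as a pyridine nucleotide-disulfide oxidoreductase, was at 14.7, 14.1 and 17.3 CPM in WT and at 6.09, 4.08 and 4.19 CPM in Delta28. Its log2 fold change was -1.68 (SE 0.27, adjusted p = 0.00868). This call was lost without WT replicate 3 and without Delta28 replicate 2 or 3. In the fit of the 6 libraries alone its adjusted p was 0.0725.

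Of the 4 called genes annotated with nucleic acid binding or transcription domains, 3 fell and 1 rose. AT2G40960, which encodes a protein with an R3H domain, a fold that binds single-stranded nucleic acid, was at 12.0, 8.45 and 9.88 CPM in WT. In Delta28 it was at 0.636, 1.24 and 0.997 CPM, and the log2 fold change was -3.39 (SE 0.48, adjusted p = 0.00357). AT1G26665 encodes a Med10 subunit of Mediator, the complex that links transcription factors to RNA polymerase II, and fell by 1.85 (SE 0.35, adjusted p = 0.0308). Its levels were 20.2, 11.8 and 22.8 CPM in WT and 3.73, 4.08 and 8.18 CPM in Delta28. AT1G12400 encodes the TTDA subunit of TFIIH, the factor of transcription initiation and nucleotide excision repair. It was at 19.6, 15.2 and 15.5 CPM in WT against 5.18, 6.55 and 3.39 CPM in Delta28, a log2 fold change of -1.71 (SE 0.33, adjusted p = 0.0343). AT3G25940, a protein with a TFIIB-type zinc-binding domain, rose instead, from 4.49, 9.01 and 9.61 CPM in WT to 19.9, 29.2 and 22.1 CPM (log2 fold change 1.63, SE 0.32, adjusted p = 0.0371). Without any 1 of the 6 libraries the calls of AT1G12400 and AT3G25940 were lost. That of AT1G26665 was lost without WT replicate 1 or 3 and without Delta28 replicate 1 or 2.

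Among genes of the cytoskeleton, autophagy and ubiquitin-like proteins, TON1B, ATG8G and MUB2 fell. TON1B belongs to a pair of tandem genes, TON1A and TON1B, whose proteins organise cortical microtubules and the preprophase band that marks the division plane. It was at 14.1, 14.6 and 10.14 CPM in WT and at 3.82, 2.62 and 2.19 CPM in Delta28 (log2 fold change -2.13, SE 0.34, adjusted p = 0.00824). Its call was lost without Delta28 replicate 2 or 3 and in the fit of the 6 libraries alone (adjusted p = 0.0691). TON1A, its neighbour, was at 39.6, 36.0 and 46.3 CPM in WT and at 40.5, 48.3 and 36.1 CPM in Delta28, a log2 difference of 0.03 (SE 0.20, adjusted p = 0.987). The groups were thus apart for TON1B and overlapped for TON1A; the labels do not state how reads from sequence shared by the copies were divided, so the split between them is uncertain. ATG8G, a ubiquitin-like protein that is joined to the lipid of autophagosome membranes, was at 18.6, 13.0 and 15.3 CPM in WT. In Delta28 it was at 5.27, 5.46 and 5.19 CPM, and it fell by 1.56 (SE 0.27, adjusted p = 0.0168). MUB2, a membrane-anchored ubiquitin-fold protein, was at 7.34, 16.3 and 10.2 CPM in WT against 1.82, 1.31 and 4.19 CPM in Delta28 (log2 fold change -2.25, SE 0.43, adjusted p = 0.0311), and lies on the minus strand. Its call was lost without WT replicate 2 or 3 and without Delta28 replicate 1 or 2. The other MUB genes tested went the other way: MUB1, MUB4, MUB5 and MUB6 had log2 differences of 0.24, 0.43, 1.12 and 0.49. Their groups overlapped and none was called. MUB4 also lies on the minus strand.

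The other 8 Arabidopsis ATG8 genes, looked up after the call of ATG8G was seen, gave log2 differences of -0.11 to -0.95, all below 0, and none was called. ATG8A was at 62.8, 52.9 and 66.8 CPM in WT and at 35.8, 38.5 and 37.1 CPM in Delta28 (log2 difference -0.72, SE 0.29, adjusted p = 0.47). ATG8C was at 56.7, 40.5 and 47.6 CPM against 36.0, 30.4 and 37.7 CPM (-0.49, SE 0.24, adjusted p = 0.573). The groups did not overlap in ATG8A, ATG8C, ATG8D and ATG8E, as in ATG8G. Over all genes tested, the Delta28 libraries lay all below WT for 7.66%, and 6598 of 13874 log2 differences were below 0. In ATG8I, as in ATG8B, ATG8F and ATG8H, they overlapped, at 45.3, 33.8 and 26.8 CPM in WT and 28.5, 23.8 and 39.7 CPM in Delta28. ATG8B, ATG8D, ATG8F, ATG8H and ATG8I lie on the minus strand, where the deposited gene models lack the 3′ exon. In ABA leaves the groups overlapped for all 8, and 7 had log2 differences above 0, from 0.04 (ATG8C) to 0.70 (ATG8H), with ATG8D at -0.46.

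Wall-linked and secreted enzymes moved in both directions. AT4G16745, an exostosin-family protein of the kind that holds glycosyltransferases of the cell wall, was at 4.08, 5.63 and 6.79 CPM in WT and at 0, 0.0728 and 0.399 CPM in Delta28. It had 107 reads in WT and 3 in Delta28, a ratio of 58.9 (95% exact binomial interval 19.6 to 290.1, for counting error only), and its adjusted p was 0.0109. The call of AT4G16745 was lost without WT replicate 3 and without Delta28 replicate 1 or 2 (adjusted p up to 0.123). ATBFRUCT1, a cell wall invertase that cleaves sucrose outside the cell, was at 47.5, 137 and 117 CPM in WT against 22.6, 26.0 and 19.7 CPM in Delta28. It fell by 2.13 (SE 0.43, adjusted p = 0.0481) and lies on the minus strand. SBT3.12, a subtilisin-like protease, was at 6.32, 6.76 and 7.59 CPM in WT and at 1.18, 0.582 and 0.199 CPM in Delta28 (log2 fold change -3.26, SE 0.67, adjusted p = 0.0491). BGLU11, a beta-glucosidase, rose: it was at 33.7, 18.0 and 16.9 CPM in WT and at 45.0, 149 and 95.9 CPM in Delta28 (log2 fold change 2.07, SE 0.41, adjusted p = 0.0395). The lowest Delta28 library of BGLU11 was not far above the highest WT library, and its call was lost without WT replicate 1, 2 or 3 and without Delta28 replicate 2 or 3. The call of SBT3.12 was lost without any 1 library, and that of ATBFRUCT1 without any 1 library other than WT replicate 1.

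LPD1, GLN1.3, AT4G39955 and AT4G25170 also rose. LPD1 encodes the lipoamide dehydrogenase subunit of the plastid pyruvate dehydrogenase complex, which feeds fatty acid synthesis. It was at 4.49, 5.07 and 6.26 CPM in WT and at 19.5, 32.2 and 27.1 CPM in Delta28, a log2 fold change of 2.29 (SE 0.43, adjusted p = 0.0308), on the minus strand. LPD2, which encodes the second plastid form, was at 13.7, 10.14 and 9.17 CPM in WT and 21.4, 13.6 and 15.6 CPM in Delta28, and the groups overlapped (log2 difference 0.62, SE 0.38, adjusted p = 0.681). GLN1.3 is a cytosolic glutamine synthetase, an enzyme that joins ammonium to glutamate. It was at 5.71, 6.76 and 10.3 CPM in WT and at 20.9, 33.6 and 37.9 CPM in Delta28 (log2 fold change 1.97, SE 0.40, adjusted p = 0.0487). The other glutamine synthetases tested, GLN1;1, GLN1;2, GLN1;4 and the plastid enzyme GLN2, overlapped between the groups, with log2 differences of -0.56 to 0.25. LPD2 and all of these but GLN2 lie on the minus strand, where the deposited gene models lack the 3′ exon. AT4G39955, an alpha/beta-hydrolase, rose from 14.9, 10.7 and 13.8 CPM to 35.7, 60.7 and 67.8 CPM (log2 fold change 2.03, SE 0.37, adjusted p = 0.0223). AT4G25170, a conserved protein of unknown function, was at 30.0, 20.3 and 32.6 CPM in WT and at 72.7, 78.9 and 68.0 CPM in Delta28 (log2 fold change 1.39, SE 0.26, adjusted p = 0.0285). Its call was lost without any 1 of the 6 libraries. The calls of LPD1, GLN1.3 and AT4G39955 were lost without any 1 library other than Delta28 replicate 1.

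The remaining called genes all fell. AT5G45560, whose protein has a pleckstrin homology and a START lipid-binding domain, was at 10.2, 6.76 and 5.91 CPM in WT and at 1.91, 1.02 and 1.80 CPM in Delta28 (log2 fold change -2.29, SE 0.47, adjusted p = 0.048). AT4G16850, an uncharacterised gene, was at 53.4, 50.7 and 52.0 CPM in WT and at 26.0, 30.7 and 21.1 CPM in Delta28. It fell to 0.5005 of the WT level (SE of the log2 fold change 0.18, adjusted p = 0.0223), the only called gene with a change of less than 2-fold, and its WT libraries differed by less than 3 CPM. Its call was lost without any 1 library other than Delta28 replicate 2 (adjusted p up to 0.14). It was also lost in the fit of the 6 libraries alone (adjusted p = 0.106). AT1G80570, a leucine-rich repeat protein of the RNI-like family, was at 4.28, 2.82 and 3.35 CPM in WT against 0.455, 0 and 0.199 CPM in Delta28, from 64 and 6 reads (log2 fold change -3.97, SE 0.79, adjusted p = 0.0389). It was the called gene whose higher group averaged under 5 CPM, outside the rule for named genes. The call of AT1G80570 was lost without any 1 library other than Delta28 replicate 1.

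Annotated neighbours overlapped 7 of the 22 called genes, and the labels do not state whether counting used the strand. The 3 overlapping genes that could be tested were not called. AT5G16070, antisense to AT5G16060, averaged 14.7 CPM in WT and 15.3 CPM in Delta28, and AT3G16940, antisense to LPD1, averaged 72.9 and 69.1 CPM. AT1G12390, which overlaps AT1G12400 on the same strand, averaged 29.3 and 30.8 CPM. For HTA9, AT4G16745, AT4G16850 and AT4G25170 the overlapping gene was not tested, so reads shared with it cannot be assigned. The called genes were spread over the chromosomes, with 6 each on 1, 3 and 4, 3 on 5 and 1 on 2. AT4G16745 and AT4G16850 were 12 genes apart in the order of genes with an entry, TON1B was 42 genes from HTA11 and AT2G40960 was 200 genes from HTA8.

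The same genotypes were compared in ABA leaves from other libraries, which shows the same genotype difference under another treatment. There edgeR called 16 of 13874 genes (0.115%), 1 higher and 15 lower in Delta28. Of the 22 genes called in mock leaves, 21 differed in the same direction in ABA leaves, 15 with libraries that did not overlap, and 17 had an unadjusted p under 0.05. Over all genes tested, 9.9% had the same direction with ABA libraries that did not overlap, and 6.56% with an unadjusted p under 0.05. Of all genes tested 62% had the same direction under both treatments, and of those with an unadjusted p under 0.05 in mock leaves 83.5% did. HTA9, AT5G16060, AT5G45560, TON1B, AT4G32360 and AT1G74240 were called under both treatments. All 6 were lower in Delta28. The mock call of AT5G45560 was lost without any 1 of the 6 mock libraries (adjusted p up to 0.246), without the filter, in the fit of the 6 libraries alone, with the replicate block and without K>R 3 mock replicate 2.

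TON1B was at 11.6, 13.7 and 12.8 CPM in the WT ABA libraries and at 3.63, 2.66 and 2.23 CPM in those of Delta28, a log2 fold change of -2.12 (SE 0.34, adjusted p = 0.00916), nearly the same as in mock leaves. AT5G16060 was at 27.6, 28.4 and 42.0 CPM against 12.0, 7.23 and 5.73 CPM (-1.94, SE 0.26, adjusted p = 0.00116). AT5G45560 was at 12.6, 8.42 and 8.59 CPM against 1.07, 1.90 and 0.318 CPM (-3.02, SE 0.48, adjusted p = 0.00916). In these genes no Delta28 ABA library reached the WT range. AT3G25940 was the exception to the shared direction: its ABA libraries were at 8.47, 6.43 and 6.13 CPM in WT and 7.01, 6.85 and 6.68 CPM in Delta28, which overlapped (log2 difference -0.01, SE 0.32, adjusted p = 0.997). ATG8G was at 27.9, 33.1 and 22.2 CPM in WT ABA leaves and at 15.9, 18.1 and 9.86 CPM in Delta28. Those groups did not overlap, and the log2 difference of -0.90 (SE 0.26) had an adjusted p of 0.249.

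Whether the genotype difference itself changed with ABA was tested as an interaction, for which 0 genes passed (0%). At an unadjusted p under 0.05 edgeR gave 445 genes, and DESeq2 called 0 genes at its adjusted p and 523 at an unadjusted p under 0.05. Of the 22 genes 9 had an unadjusted interaction p under 0.05, and in all 9 the difference was smaller in ABA leaves. The genes had been selected by their difference in mock leaves, so a smaller value elsewhere is not read as a change. The interaction was -1.64 for AT3G25940 (unadjusted p = 0.00147) and -1.73 for LPD1 (unadjusted p = 0.00808), whose ABA libraries were at 5.65, 4.53 and 7.14 CPM in WT and 7.17, 13.8 and 4.14 CPM in Delta28. For genes lower in Delta28 mock leaves, it was 3.38 for AT1G80570 (unadjusted p = 0.00284) and 1.92 for AT2G40960 (unadjusted p = 0.00631). AT2G40960 was at 11.3, 8.78 and 9.66 CPM in WT ABA leaves and at 4.78, 1.78 and 4.14 CPM in Delta28. Its log2 difference there was -1.47 (SE 0.44, adjusted p = 0.273).

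**Figure D3:**
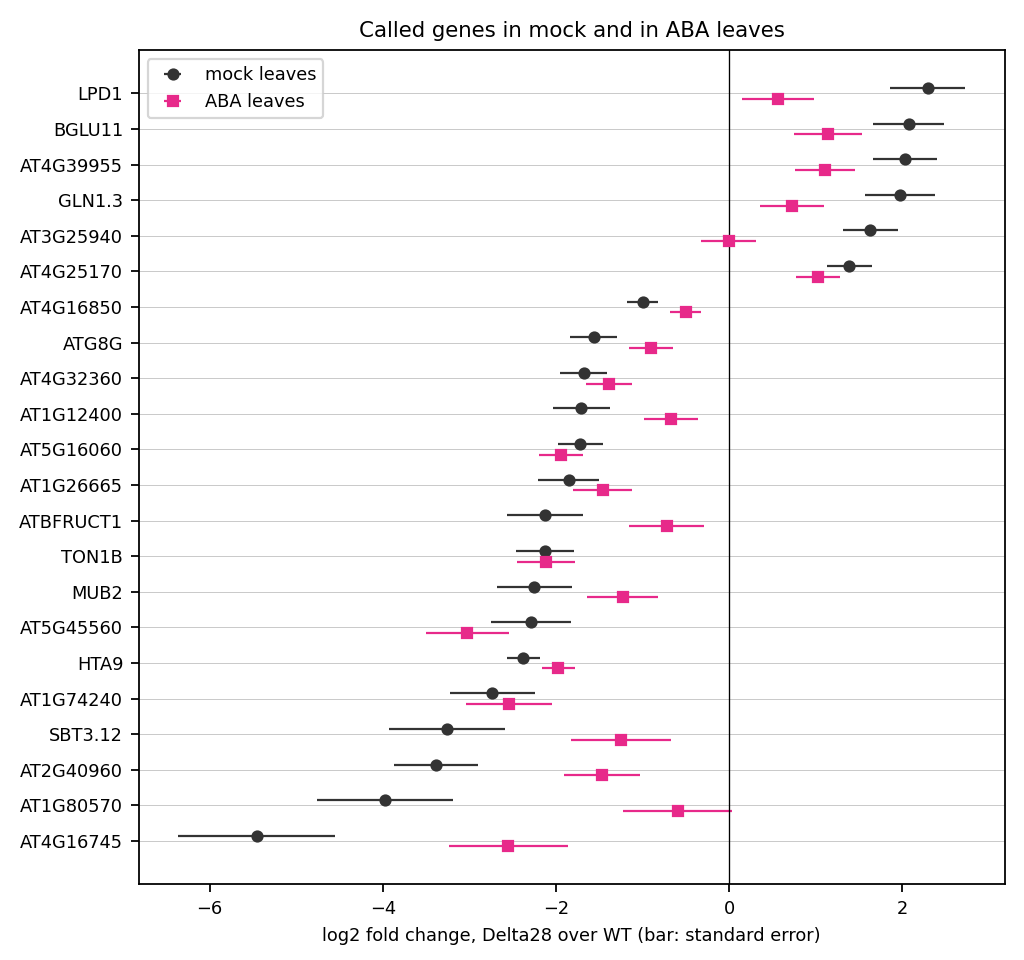
Log2 fold change of Delta28 over WT for the 22 called genes, in mock leaves (circles) and in ABA leaves (squares), with bars of 1 standard error. All genes but AT3G25940, at -0.01 in ABA leaves, lie on the same side of 0 in both, and TON1B and AT1G74240 nearly coincide.

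Mock leaves of the other tail-altered lines show where Delta28 stood among lines that share the null background. These comparisons use the same 3 Delta28 libraries, so values are given side by side. Delta28 differed from K>R 1-9 at 36 genes (0.259%), 18 higher and 18 lower, and from K>R 3 at 65 genes (0.469%), 23 higher and 42 lower. Without K>R 3 replicate 2, the library with the high HTA11 level, the second count was 5, and without K>R 3 replicate 1 it was 113. Of the 22 genes called against WT, 2 were also called in the same direction against K>R 1-9, ATG8G and LPD1, and 13 against K>R 3, of which 3 remained without K>R 3 replicate 2 (AT2G40960, AT5G16060 and ATG8G).

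ATG8G was the gene called against WT and against both K>R lines. Its call against WT was lost without any 1 of the 6 libraries other than WT replicate 2 (largest adjusted p = 0.0715), and in the fit of the 6 libraries alone (adjusted p = 0.0725). Its mock level was 19.0, 18.19 and 14.5 CPM in K>R 1-9 and 14.4, 24.3 and 17.63 CPM in K>R 3, close to the 13.0 to 18.6 CPM of WT and above the 5.19 to 5.46 CPM of Delta28. The log2 difference of Delta28 was -1.69 from K>R 1-9 (adjusted p = 0.0112) and -1.81 from K>R 3 (adjusted p = 0.00452). Leaving out single libraries gave adjusted p-values of 0.0248 to 0.0647 against K>R 1-9 and 0.00259 to 0.0387 against K>R 3. LPD1 was at 4.43, 6.06 and 4.14 CPM in K>R 1-9, within or below the WT range, and Delta28 exceeded K>R 1-9 by 2.44 (adjusted p = 0.0158). Leaving out single libraries gave LPD1 adjusted p-values of 0.044 to 0.0727 against K>R 1-9. In K>R 3 it was at 16.0, 6.98 and 6.31 CPM, above the WT libraries at 4.49 to 6.26 CPM. Delta28 was not called against K>R 3 for this gene (adjusted p = 0.135).

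The mean of K>R 1-9 lay between those of WT and Delta28 for 17 of the 22 genes, and that of K>R 3 for 15, against 28.1% and 29.2% of all genes tested. The 22 genes had been selected for a wide gap between WT and Delta28, in which another line falls more readily, so these counts are a description. On a log scale the mean of K>R 1-9 was nearer to Delta28 for 10 genes, whereas that of K>R 3 was nearer to Delta28 for 3 (HTA9, AT3G25940 and BGLU11); over all genes tested the shares were 50.5% and 53.1%. AT5G45560 was at 1.66, 1.80 and 2.63 CPM in K>R 1-9, beside 1.02 to 1.91 CPM in Delta28, and at 6.15, 6.14 and 4.87 CPM in K>R 3, beside 5.91 to 10.2 CPM in WT. AT4G16745 was at 1.24, 0 and 1.25 CPM in K>R 1-9 and at 4.22, 6.14 and 2.58 CPM in K>R 3. BGLU11 was high in all 3 null-background lines, at 100.2 to 151 CPM in K>R 1-9 and 51.9 to 82.1 CPM in K>R 3. AT4G39955 was at 87.4, 54.3 and 38.5 CPM in K>R 1-9, which spans the Delta28 range, and at 17.1, 20.9 and 34.3 CPM in K>R 3. AT3G25940 showed the other order, at 10.4, 8.76 and 15.7 CPM in K>R 1-9 and 23.9, 24.01 and 27.8 CPM in K>R 3.

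**Figure D4:**
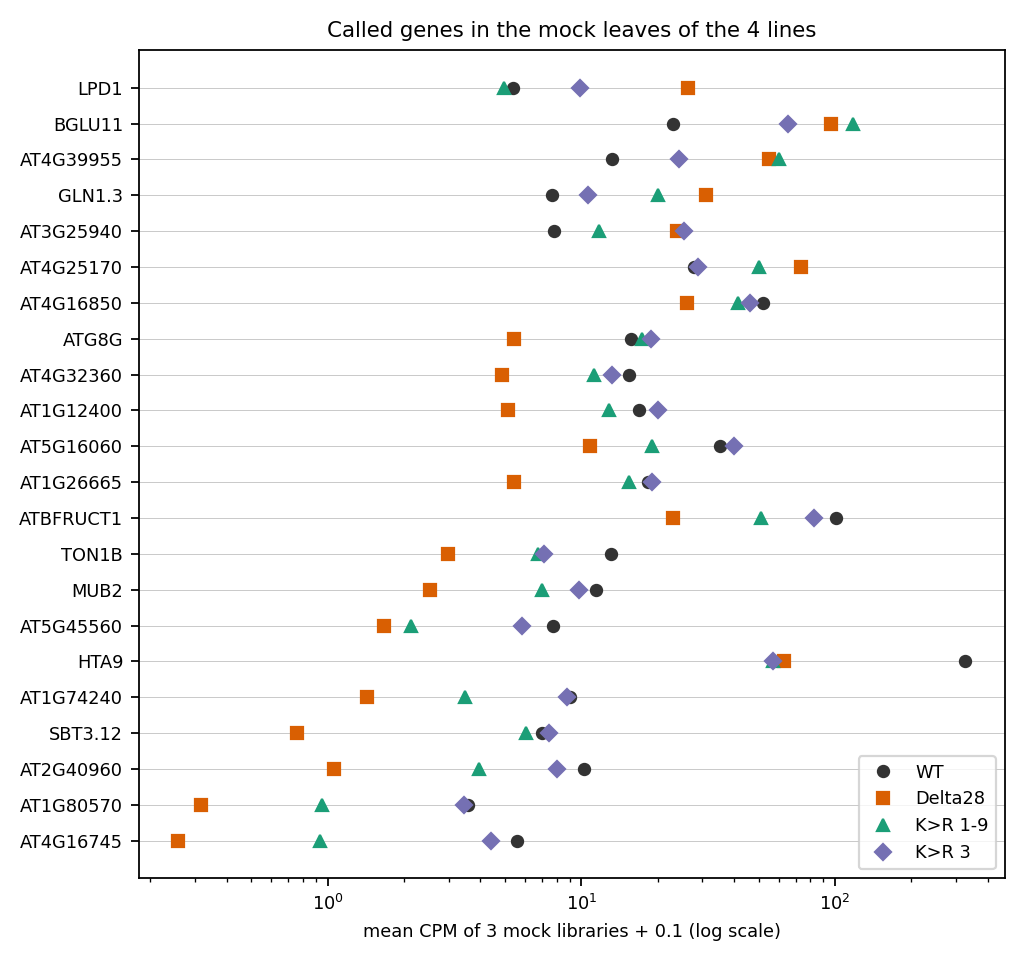
Mean level of the 22 called genes in the mock leaves of WT, Delta28, K>R 1-9 and K>R 3, as mean CPM of 3 libraries + 0.1 on a log axis. K>R 1-9 (triangles) lies between WT (circles) and Delta28 (squares) for 17 genes, and K>R 3 (diamonds) is nearer to WT for 19.

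Gene lists for chromatin, stress, hormone and development pathways held 361 tested genes, of which HTA9 was the only one called. Counts and medians of the lists are read beside all genes tested, where the median log2 difference was 0.02, 7253 genes were above 0 and 6598 below. The Delta28 libraries lay all above WT for 9.59% of all genes and all below for 7.66%, and an unadjusted p under 0.05 was found for 8.88%, higher in 4.88%.

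Of the genes that place H2A.Z, PIE1, the ATPase of SWR1, was at 14.5, 14.6 and 18.3 CPM in WT and at 25.7, 26.0 and 27.9 CPM in Delta28. The groups did not overlap, and the log2 difference was 0.73 (SE 0.22, adjusted p = 0.283). SWC2, the subunit that binds H2A.Z in yeast, was at 45.7, 38.9 and 33.5 CPM against 27.1, 22.8 and 27.7 CPM (-0.61, SE 0.24, adjusted p = 0.455). MBD9, a methyl-CpG-binding-domain protein that recruits SWR1, was at 29.4, 28.7 and 30.9 CPM against 20.7, 24.5 and 22.5 CPM (-0.40, SE 0.21, adjusted p = 0.607). Over the 16 SWR1 and INO80 subunits tested the median was -0.20, with 11 below 0, and none was called by edgeR or DESeq2 (5 at an unadjusted p under 0.05). Their log2 differences ran from -2.15 to 1.01. Delta28 libraries lay all above WT for 2 of them and all below for 4, against 9.59% and 7.66% of all genes. Of 9 NuA4 subunits 7 were below 0 (median -0.37), 2 had Delta28 libraries all below WT, and none was called by either tool (2 at an unadjusted p under 0.05). PIE1, SWC2, MBD9 and EPL1A were chosen after their values were seen. INO80, the ATPase of the related INO80 complex and the best covered subunit, overlapped at 46.7, 43.4 and 53.6 CPM in WT and 38.4, 48.3 and 45.9 CPM in Delta28. EPL1A, a scaffold of NuA4, was at 6.73, 6.19 and 10.14 CPM in WT and 3.36, 2.48 and 4.59 CPM in Delta28 (adjusted p = 0.37). The ordinary H2A genes had a median of 0.04, and HTA10, the best covered, was at 139, 118 and 88.3 CPM in WT and 125, 112 and 120 CPM in Delta28.

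ABA marker genes were above 0 for 19 of 23 tested, with a median of 0.87, 9 had Delta28 libraries all above WT, and edgeR called none (4 at an unadjusted p under 0.05, 2 called by DESeq2). RD29B, a dehydration gene with ABA-response elements also known as LTI65, was at 2.24, 0 and 0.97 CPM in WT and at 4.55, 22.9 and 21.5 CPM in Delta28. Its log2 difference was 3.69 (SE 1.00) with an adjusted p of 0.21 from edgeR and 0.0138 from DESeq2. AFP1, which binds the ABA transcription factor ABI5, was at 1.84, 0.563 and 3.53 CPM against 6.45, 17.5 and 27.9 CPM (2.81, SE 0.79, adjusted p = 0.216 from edgeR and 0.00742 from DESeq2). In both genes Delta28 replicate 1 was the lowest of its group. KIN1, a cold- and ABA-induced gene, was at 182, 149 and 263 CPM against 345, 306 and 659 CPM (1.14, SE 0.51, adjusted p = 0.53). The best covered markers overlapped: KIN2 was at 6531, 8050.02 and 14807 CPM in WT and 11069, 11133 and 13663 CPM in Delta28. RD29A and P5CS1 overlapped too, with adjusted p-values of 0.892 and 0.931. RD29B, AFP1 and KIN1 were chosen after their values were seen.

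Jasmonate genes were above 0 for 18 of 23 (median 0.44), and none was called by edgeR or DESeq2 (4 at an unadjusted p under 0.05). Delta28 libraries lay all above WT for 5 of the 23 and all below for 0, against 9.59% and 7.66% of all genes. VSP2, a vegetative storage protein, was at 25.9, 18.0 and 2.03 CPM in WT and at 27.3, 54.1 and 288 CPM in Delta28, so that the groups were barely apart and Delta28 replicate 3 stood far above the rest (adjusted p = 0.433); it was chosen after its values were seen. In ABA leaves the median of the jasmonate genes was -0.19. LOX2, the plastid lipoxygenase of jasmonate synthesis, overlapped between the groups, with a log2 difference of 0.47 (SE 0.57). Phosphate starvation genes lay below 0 for 13 of 16 (median -0.43), with no gene whose groups were apart and none called by either tool (2 at an unadjusted p under 0.05). In ABA leaves the median of the phosphate genes was on the other side of 0, at 0.39. RNS1, a secreted ribonuclease induced by phosphate starvation, was at 471, 585 and 971 CPM in WT and 519, 206 and 235 CPM in Delta28, with an overlap. Salicylate and immune genes (26 tested, median -0.03), photosystem antenna and Rubisco genes (23, median 0.01), flavonoid genes (19, median 0.04) and reference genes (14, median 0.09) had medians close to that of all genes, and none of these genes was called by either tool (2, 0, 2 and 0 at an unadjusted p under 0.05). The other pathway lists, for heat shock, glucosinolates, auxin and growth, the clock, cold, iron and oxidative stress, senescence, DNA damage, silencing and light, had medians of -0.17 to 0.27, and edgeR called none of their genes (2, 0, 2, 1, 1, 2, 3, 0, 0 and 2 at an unadjusted p under 0.05). DESeq2 called XTH4 and SAG29 among them. XTH4, a xyloglucan-modifying enzyme of the wall, was at 106, 83.9 and 179 CPM in WT and at 383, 592.5 and 323 CPM in Delta28 (1.81, SE 0.51, adjusted p = 0.231 from edgeR and 0.0468 from DESeq2).

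Flowering regulators had a median of -0.09 over 17 genes tested, and none was called by edgeR (4 at an unadjusted p under 0.05). FT, the mobile signal that triggers flowering, was at 0.204, 0 and 0.265 CPM in WT and at 4.00, 3.71 and 3.99 CPM in Delta28. It had 4 and 115 reads, and its log2 difference of 4.12 (SE 1.13) had an adjusted p of 0.213 from edgeR and 0.0407 from DESeq2, which called no other gene of the list. SOC1, the MADS-box integrator downstream of FT, was at 15.5, 14.6 and 12.0 CPM against 23.1, 20.3 and 27.9 CPM (0.76, SE 0.26, adjusted p = 0.356). SVP, a repressor of FT and the best covered of the list, was at 231, 261 and 239 CPM in WT and at 204, 218 and 220 CPM in Delta28 (-0.19, SE 0.17, adjusted p = 0.822). FT, SOC1 and SVP each had groups that did not overlap, the first 2 with Delta28 above. Over the 17 genes, Delta28 libraries lay all above WT for 3 and all below for 3, against 9.59% and 7.66% of all genes. Of the flower markers, SEP3, a MADS-box gene of floral organs that is also induced by FT in leaves, had no read in WT and was at 1.73, 5.31 and 0.798 CPM in Delta28. With reads pooled over each group, the 96 SEP3 reads of Delta28 were 19.4-fold above a floor of 3 reads in WT (adjusted p = 0.236). This ratio leaves out the spread between replicates. Delta28 replicate 3, at 0.798 CPM, was below the 1.69 CPM that a count of 0 allows in WT replicate 2. The floral organ genes AP3 and SEP2 had no read in any of the 6 libraries. AG was at 1.63, 1.13 and 3.44 CPM in WT and 0.182, 0.874 and 0.598 CPM in Delta28. SEP1 had 2 reads in WT and 49 in Delta28, a pooled ratio of 14.8 (95% exact binomial interval 3.9 to 126, for counting error only). Of the 3 flower markers tested, 2 had Delta28 libraries all above WT and 1 all below, against 9.59% and 7.66% of all genes. An unadjusted p under 0.05 was found for 2 higher and 1 lower, against 8.88% of all genes, and edgeR called none. SEP3 had no read in WT and SEP1 had 2, so both could pass the count filter only through other groups. The filter thus favoured higher Delta28 values among such genes, and these shares are not read as an excess. FLC had no read in the 6 libraries and lies on the minus strand, so its value checks nothing. SOC1, SEP3 and SEP2 also lie on the minus strand. FT and SOC1 were chosen after their values were seen.

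**Figure D5:**
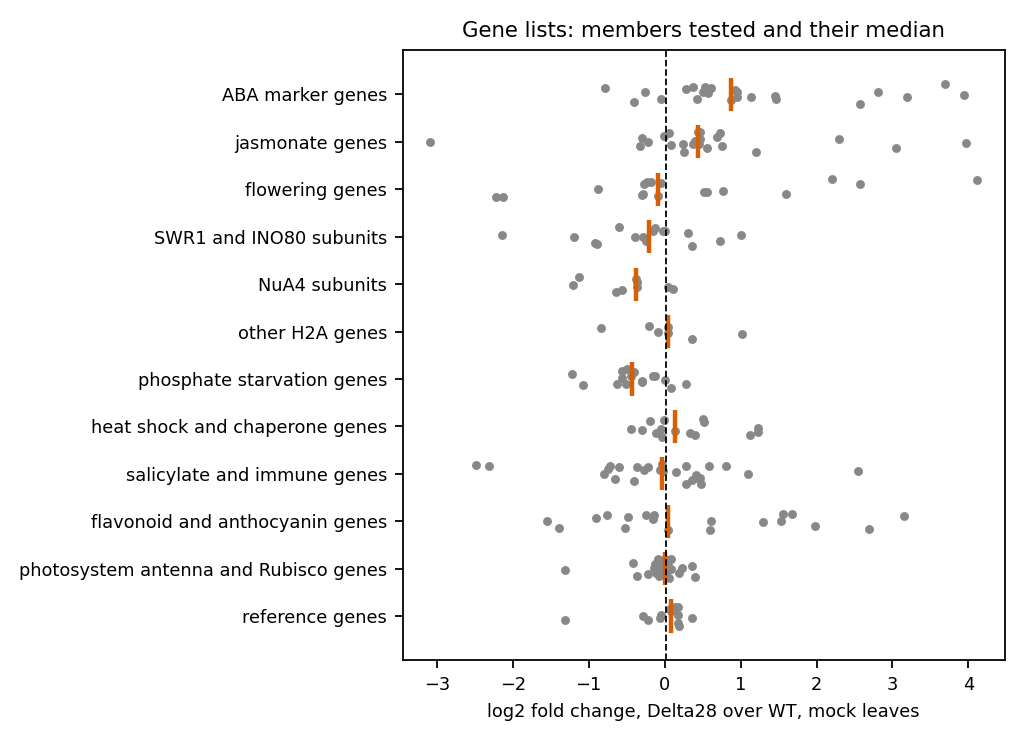
Log2 difference of Delta28 from WT in mock leaves for the tested genes of 12 lists (grey points), with the median of each list (orange bar) and of all genes tested (dashed line, 0.02). ABA markers have a median of 0.87 and phosphate starvation genes of -0.43, while the photosystem and reference genes lie near 0.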

How the data were processed

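Leaf RNA of 24 libraries was measured with a 3′ end counting kit, with 3 biological replicates per genotype and treatment, per the labels. The submitters' processing notes name STAR, RSEM and Trim Galore. For versions, settings, genome build and annotation nothing was found (not given in the sources used here). RSEM expected counts per gene, not normalised, were deposited by the authors for 22279 genes, of which 22233 matched a TAIR10.1 locus. The transcript lengths in the files were used only to compare gene models with TAIR10.1.

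Expected counts were rounded and fitted with edgeR 4.0.16 in R 4.3.3: all 24 libraries in 8 groups, filterByExpr, TMM scaling and the quasi-likelihood test (16 residual degrees of freedom, biological coefficient of variation 0.364). A gene was called at a Benjamini-Hochberg adjusted p under 0.05 over the 13874 genes tested. The script was tested on simulated data. There it recovered 6% of 2-fold and 58% of 4-fold changes between Delta28 and WT mock leaves. A gene that was not called is therefore not read as unchanged. DESeq2 1.42.0, RLE scaling, no filter, the 6 libraries alone, plus-strand genes alone, the replicate number as a block and fits without single libraries were alternatives. No column lacked a sample. The genes named are the H2A.Z genes, up to 15 called genes per direction whose libraries did not overlap and whose higher group averaged at least 5 CPM, called or best covered genes of the lists, and genes also called against both K>R lines; others are marked where they appear. The members, gene lists and tests were chosen with earlier results of these data known. Relatives of called genes were looked up after the calls. Intervals cover counting error only.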

Additional observations from a re-analysis of the deposited data

How the results depend on the processing

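Under RLE scaling all 22 genes of the main comparison were called, without the filter 21 of 22, and without K>R 3 mock replicate 2 20 of 22. DESeq2 called 88 genes, and plus-strand genes alone gave 34 calls (28 lower). The 6 libraries fitted alone gave 21 calls, 13 higher and 8 lower against 6 and 16 in the fit of all libraries, and 8 were shared; by construction that fit has fewer samples to estimate the spread. In ABA leaves the count of 16 became 92 with DESeq2, 0 with only the groups compared, 25 with plus-strand genes and 10 without K>R 3 mock replicate 2. Against K>R 1-9 the count of 36 became 466, 1 and 68 with DESeq2, only the groups compared and plus-strand genes. Against K>R 3 the count of 65 became 259 with DESeq2, 4 with only the groups compared and 5 without K>R 3 mock replicate 2. The cause of these shifts was not tested. Fits without a single library gave 4 to 12 calls in mock leaves, 2 to 10 in ABA leaves, 0 to 0 for the interaction, 2 to 28 against K>R 1-9 and 5 to 113 against K>R 3. Same-numbered WT and Delta28 mock libraries correlated in their deviations at 0.11, 0.0417 and -0.13, so the replicate numbers were not taken to pair samples; with the replicate block 16 genes were called (14 shared), 14 in ABA leaves, 0 for the interaction, 28 against K>R 1-9 and 59 against K>R 3. No called gene changed sign under any alternative. Depth limits genes under about 1.69 CPM in WT replicate 2, and minus-strand genes lack their 3′ exon in the deposited gene models.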

Other observations

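DESeq2 called 66 genes that edgeR did not, of which 63 (95.5%) had the same direction in ABA leaves. The share was 62% over all genes tested and 83.5% over those with an unadjusted p under 0.05 in mock leaves. The genes given here were chosen after the values were seen. PGDH, the first enzyme of plastid serine synthesis, averaged 104 CPM in WT and 361 CPM in Delta28 (adjusted p = 0.00333 from DESeq2 and 0.0853 from edgeR). TSB2, a tryptophan synthase subunit, averaged 10.4 and 32.4 CPM (0.0167 and 0.115). HO3, a heme oxygenase, averaged 44.0 and 15.8 CPM (0.00447 and 0.0759), and YSL2, a metal-nicotianamine transporter, 9.73 and 43.6 CPM (0.00297 and 0.0759).

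CAC2, the biotin carboxylase of the plastid acetyl-CoA carboxylase, was called against both K>R lines and not against WT. Its mock levels were 253, 204 and 193 CPM in Delta28, 156, 104 and 132 CPM in WT, 57.8, 94.1 and 92.9 CPM in K>R 1-9 and 129, 97.1 and 77.7 CPM in K>R 3. Delta28 was above every library of the other lines, with adjusted p-values of 0.0158 against K>R 1-9, 0.0379 against K>R 3 and 0.334 against WT. Without K>R 3 replicate 2 the second was 0.212. Leaving out single libraries gave adjusted p-values of up to 0.072 against K>R 1-9. E13L3, a beta-1,3-glucanase-like protein, was at 99.9, 106 and 78.6 CPM in Delta28 and at 10.6 to 58.7 CPM in the mock libraries of the other 3 lines. Its adjusted p was 0.0446 against K>R 1-9, 0.00942 against K>R 3 and 0.213 against WT. Without single libraries it was 0.0819 to 0.147 against K>R 1-9 and 0.0141 to 0.0767 against K>R 3. In ABA leaves Delta28 and WT overlapped for E13L3. CAC2 and E13L3 are among 10 genes called against both K>R lines in the same direction.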
